A study of Homo sapiens with 18 samples.

Results

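Genes that respond to androgen or to glucocorticoid were followed in RWPE1, an established benign human prostate epithelial line, while a tamoxifen-inducible protein was directed to androgen response elements (AREs). The genes come from a fixed list of 50 names from which FKBP5 and the other classic targets had been left out. Of these names, 48 had a row among the 57773 rows of the deposited count table, and KLF4L and TMEPAI had none. TMEPAI is an older name of PMEPA1, which is itself in the list. The list is chosen by name and not by any measured value.

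Androgens and glucocorticoids act through hormone-activated transcription factors of a single family, whose DNA-binding domains recognise closely related palindromic elements in enhancers and promoters. Androgen drives secretory, metabolic and growth genes of prostate luminal cells, while the glucocorticoid receptor induces inhibitors of inflammatory and growth signalling, metabolic enzymes and the metal-binding metallothioneins in many epithelia. Several genes answer to either hormone.

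Each MACC (modifier of ARE-containing chromatin) joins a DNA-binding domain that recognises AREs to the ERT2 hormone-binding domain, which holds the protein inactive until tamoxifen is given, and to a 3X FLAG tag. The neutral construct carries the tag alone, the repressive construct adds the KRAB domain and the activating construct adds the VP64 domain. Stable lines were made by lentiviral transduction and blasticidin selection of RWPE1 cells, so that vehicle and tamoxifen samples of a line share the construct, and the construct and its line cannot be told apart. Ethanol vehicle or tamoxifen was given for 48 hours, and each of the 6 groups (neutral, repressive and activating, each with vehicle or tamoxifen) holds 3 libraries described as biological replicates. The tamoxifen dose is 1.5 uM in the treatment label and 1.25 uM in the protocol label, a difference that was not resolved.

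Total counts lay between 675593 and 792286 per library, so that 0 counts in a library allows a level of up to 3.79 to 4.44 CPM (counts scaled to the library total), by counting error only. In bulk RNA, fewer cells with a transcript and less transcript per cell cannot be told apart. The 7 basal prostate markers summed to 1783 to 3127 CPM over the libraries, while the 7 luminal secretory markers summed to at most 3 counts in any library, with 4 of the 7 at 0 throughout. Of all counts at rows matched to the annotation, 87.8% lay at rows whose exons overlap an exon on the opposite strand, and MT-ND6, the light-strand gene among the 13 mitochondrial protein genes, took 71.7% to 79.6% of their counts. The library kit keeps strand, but the strand setting used for counting is not stated. The rows of the members may therefore hold mainly reads from the strand opposite to the gene, which was not tested, and every value below is the count at a gene's row and not with certainty that of its own transcript. Exons on the opposite strand overlapped 10 of the 48 members, and 2 of the 17 tested ones (B4GALT1 and ZBTB10), against 64.6% of all matched rows that were tested. These overlaps come from GENCODE v44lift37 and not from the annotation used for counting. It matched 5635 of the 5816 rows tested. Only exons were compared, so a gene inside an intron of a member does not count as an overlap.

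A row was tested where 3 or more libraries reached 10 counts. This left 17 of the 48 members, or 35.4%, against 10.1% of all rows (5816 rows). Of the other 31 members, 6 were at 0 in every library (KLK2, KLK3, SLC45A3, AZGP1, PDK4 and CRISPLD2) and 25 had a few counts. Low members that passed did so through their high libraries: 7 of the 17 reached 10 counts in no more than 6 libraries. The members together held 0.317% of all counts, and HERC3 alone held 85.6% of the members' counts.

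**Figure D1:**
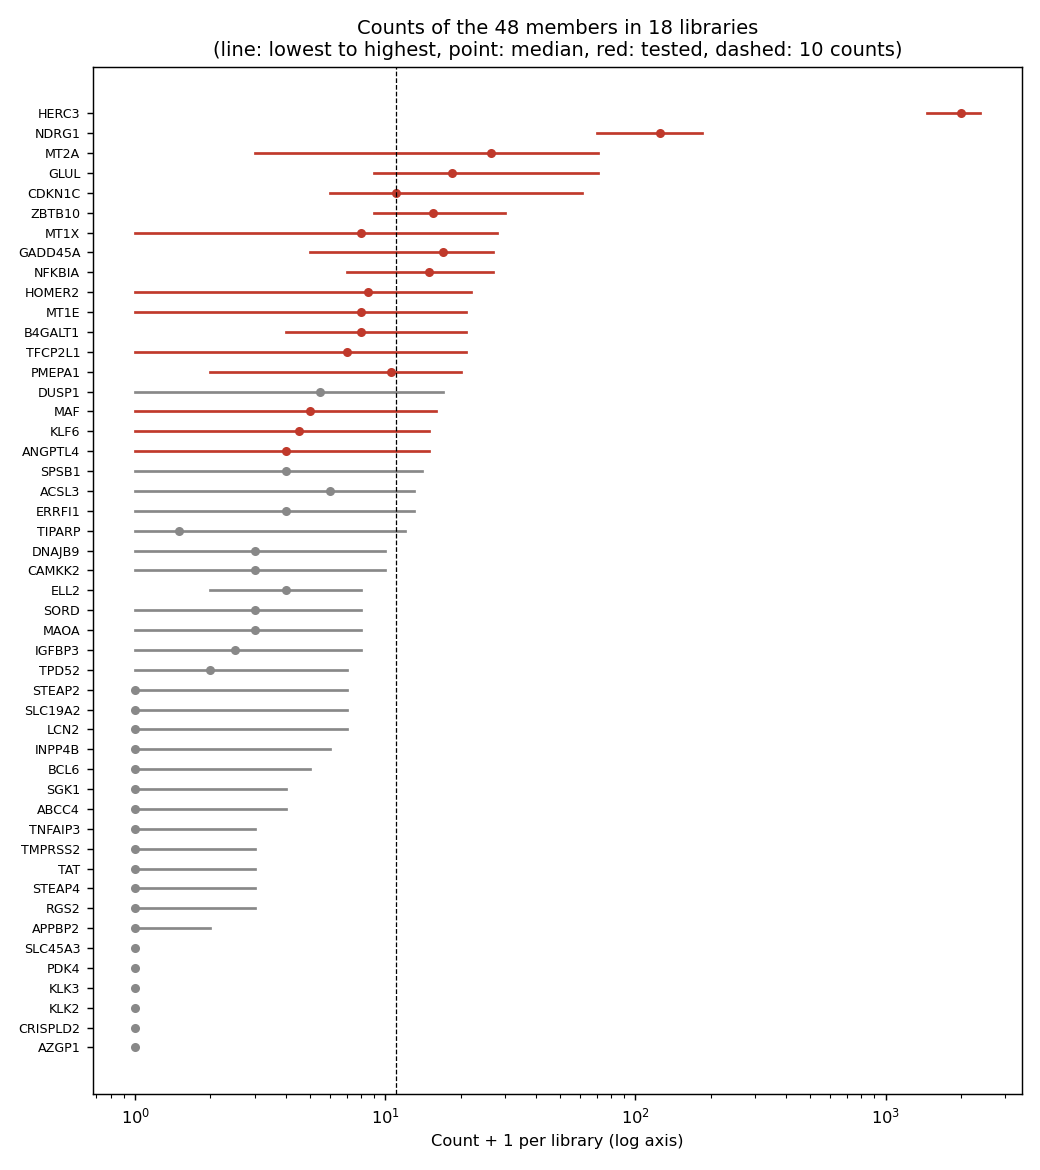
Counts of the 48 members over 18 libraries, as count + 1 on a log axis, with a line from the lowest to the highest library and a point at the median. Red members were tested; HERC3 and NDRG1 stand above the rest, and 6 members sit at 0 in all libraries.

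The metallothioneins MT2A and MT1X, which bind zinc and other metals in the cytoplasm, were both called lower in the repressive line, and their promoters are shown for that shared direction. The 250 bases before each RefSeq start were placed by exact match on GRCh37, at chr16:56642246-56642495 for MT2A and chr16:56716132-56716381 for MT1X, both on the plus strand. Capitals mark the core of the metal response element, searched as TGCACNC or TGCGCNC on either strand.
MT2A: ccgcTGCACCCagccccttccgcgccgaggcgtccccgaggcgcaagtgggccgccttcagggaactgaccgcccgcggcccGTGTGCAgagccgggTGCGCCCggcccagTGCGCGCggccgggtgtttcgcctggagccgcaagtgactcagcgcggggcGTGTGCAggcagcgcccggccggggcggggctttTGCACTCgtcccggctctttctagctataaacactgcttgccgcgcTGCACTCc
MT1X: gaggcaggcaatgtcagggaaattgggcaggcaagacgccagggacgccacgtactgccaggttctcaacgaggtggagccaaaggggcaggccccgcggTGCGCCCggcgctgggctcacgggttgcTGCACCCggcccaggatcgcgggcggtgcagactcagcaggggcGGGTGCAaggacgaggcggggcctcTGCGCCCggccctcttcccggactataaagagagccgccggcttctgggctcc
The core occurs 7 times before MT2A and 4 times before MT1X, whereas 24.7% of 27305 RefSeq promoters hold at least 1 and 1.56% hold 3 or more. The receptor motif AGAACA, which opens the full ARE palindrome given below, occurs 0 times in the MT2A window and 0 times in the MT1X window. Of the 27305 promoters, 12.4% hold at least 1. Both windows are rich in G and C (73.2% and 70.0%). A match is a description of the letters and not of binding.

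AREs were looked for as letters within 10000 bases of the annotated start of each gene. The full palindrome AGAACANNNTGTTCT was found near none of the 48 members and near 0.34% of the matched rows tested. The relaxed palindrome GNACANNNTGTNC, which reads the same on both strands, was found near 14 of 48 members (29.2%) and 8 of the 17 tested ones (47.1%), against 22.4% of all rows tested. The called members MT1X, NDRG1 and HERC3 had no relaxed match, and neither had MT1E. Matches near the 3 other called members, MT2A, CDKN1C and GLUL, are printed on the plus strand of GRCh37, with the match in capitals and, for MT2A and CDKN1C, 15 flanking bases on each side. Of the 3 GLUL matches, which all lie in exons, 1 is given, without flanks. The 2 sites before MT2A, at chr16:56641254-56641266 and chr16:56642231-56642243, lie outside any annotated gene, at positions -1236 and -259 from the start. The site before CDKN1C, at position -5027 and chr11:2912026-2912038, lies in an intron of SLC22A18AS.
MT2A distal: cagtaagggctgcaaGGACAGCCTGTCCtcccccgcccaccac
MT2A proximal: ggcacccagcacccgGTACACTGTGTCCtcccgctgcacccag
CDKN1C: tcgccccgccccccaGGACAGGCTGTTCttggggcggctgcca
GLUL: GAACACATTGTTC
The GLUL match, at chr1:182358881-182358893, lies 2454 bases inside the outermost annotated start and in an exon of GLUL. It is 1 of 3 relaxed matches around that gene, the others lying 1903 and 9229 bases inside the start.

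**Figure D2:**
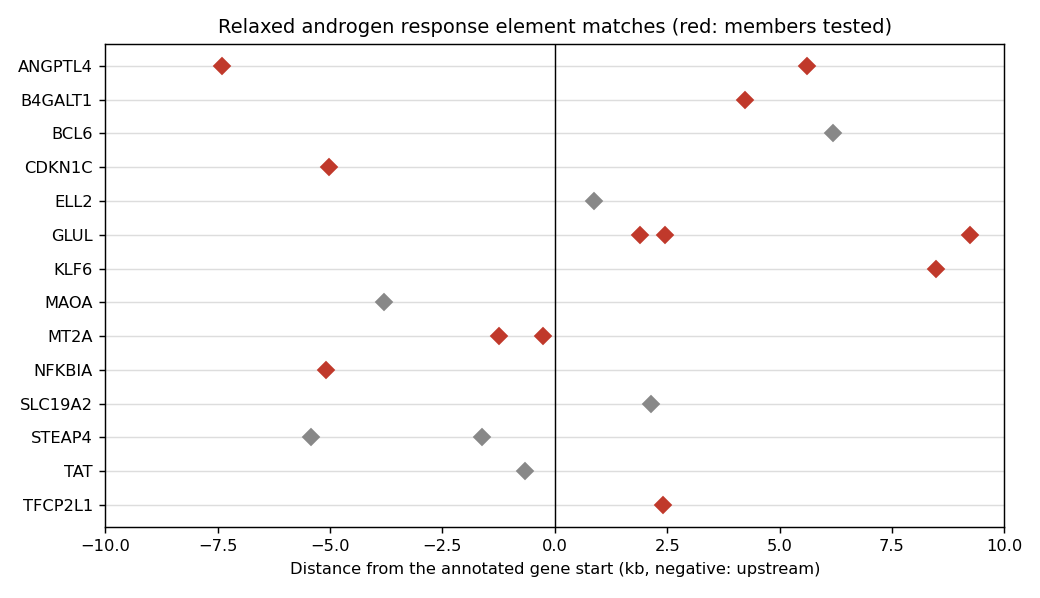
Distance in kb of each relaxed ARE match from the annotated start of the 14 members that have one, negative upstream, with tested members in red. The proximal MT2A match lies closest to its gene start, at -259 bases.

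With tamoxifen in the repressive line, 4 of the 17 members tested passed an adjusted p under 0.05 in DESeq2, which is 23.5% of them, where 9.65% of all rows tested were called. MT2A and MT1X fell and NDRG1 and CDKN1C rose. In the activating line 1 of 17 was called (HERC3, lower), where 2.8% of all rows were called. DESeq2's independent filtering, which removes rows of low mean count, left an adjusted p for only 2 of the 17 members there. It left one for 2 members in the neutral line and for 11 in the repressive line. CDKN1C and GLUL were higher in the activating line with small unadjusted p-values but were among the members without an adjusted p. With that filtering off these 2 members were called, where 2.2% of all rows were. No member was called in the neutral line by DESeq2 or by edgeR, where 0.774% and 0.378% of all rows were called, although 3 members (GLUL, MAF and MT1X) had an unadjusted p under 0.05, as had 7.75% of all rows. The median log2 fold change of the 17 members was 0.12 in the neutral line, -0.23 in the repressive line and 0.49 in the activating line, against 0.0048, -0.023 and -0.00027 over all rows tested.

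**Figure D3:**
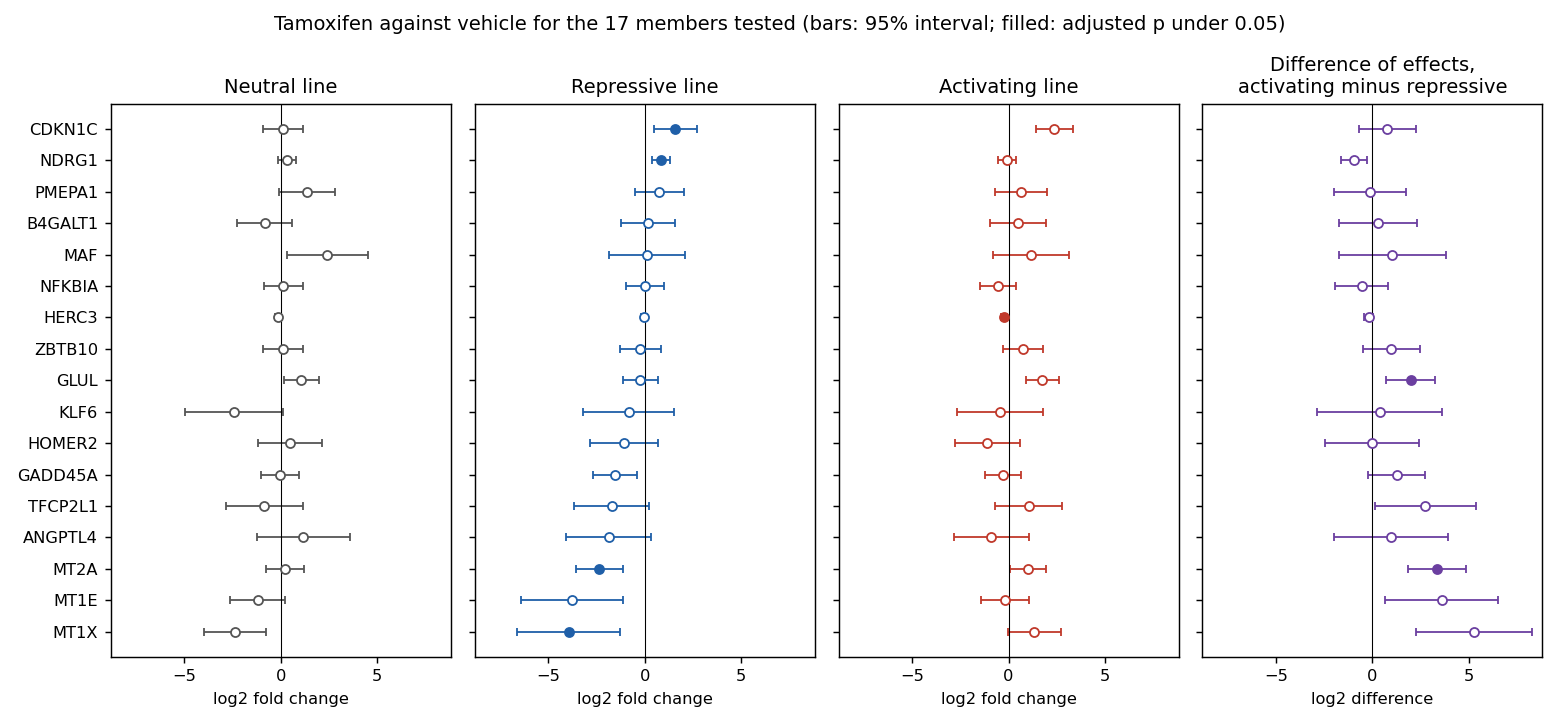
Log2 fold change of tamoxifen against vehicle for the 17 members tested in each line, and the difference of the effects between the activating and the repressive line, with 95% intervals; filled points passed an adjusted p under 0.05. MT2A, MT1X and MT1E lie lowest in the repressive line, at -2.34, -3.94 and -3.78, and 2 differences, those of MT2A and GLUL, passed.

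Whether the effector changes the response was asked by testing the difference of the tamoxifen effects. Between the activating and the repressive line 2 of 17 members differed (MT2A and GLUL, both more positive in the activating line), where 4.25% of all rows were called. Between the repressive and the neutral line 1 member differed (MT2A), where 3.85% were called. Between the activating and the neutral line DESeq2 and edgeR called no member, where 0.619% and 0.292% of all rows were called, and 2 members (CDKN1C and MT1X) had an unadjusted p under 0.05, as had 7.41% of all rows. These comparisons share samples, so their values stand side by side and are not independent of each other. In DESeq2 only 8 of the 17 members received an adjusted p for activating minus repressive, 4 for repressive minus neutral and 2 for activating minus neutral.

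MT2A was lower with tamoxifen in the repressive line and stood highest in the activating line. In the repressive line its normalized count was 26.6, 26.1 and 11.02 with vehicle and 6.79, 3.48 and 2.10 with tamoxifen. The activating line had 14.7, 29.0 and 29.9 with vehicle and 40.5, 41.9 and 64.5 with tamoxifen. The neutral line had 11.4, 14.3 and 24.6 with vehicle and 25.1, 5.85 and 27.5 with tamoxifen. The vehicle and tamoxifen values did not overlap in the repressive and in the activating line, with opposite directions, and they overlapped in the neutral line.

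MT2A fell in the repressive line, by 2.34 on the log2 scale (SE 0.62, DESeq2 adjusted p = 0.00237). This call held without any of the 18 libraries in turn, while limma-voom gave an adjusted p of 0.149. Its log2 fold change in the activating line was 1.00 (SE 0.47, unadjusted p = 0.0318), which did not pass (adjusted p = 0.4 with independent filtering off). The effect in the activating line exceeded that in the repressive line by 3.34 (SE 0.77, DESeq2 adjusted p = 0.000665), a call that also held without each library, with 0.0656 from limma-voom. Against the neutral line the repressive effect differed by -2.55 (SE 0.80, DESeq2 adjusted p = 0.0265), which was lost with edgeR (adjusted p = 0.0512) and with limma-voom (0.344). That difference was also lost without neutral tamoxifen replicate 1 or 3, neutral vehicle replicate 1 or 2, repressive tamoxifen replicate 3 or repressive vehicle replicate 1, with adjusted p up to 0.105, and it received no adjusted p without repressive tamoxifen, repressive vehicle or activating tamoxifen replicate 2.

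MT1X, a second isoform gene of the cluster on chromosome 16, showed the same direction in the repressive line at lower counts. Its normalized count there was 4.75, 7.19 and 5.51 with vehicle and 0, 0 and 1.05 with tamoxifen. Values in the activating line were 11.04, 1.93 and 8.15 with vehicle and 27.4, 12.1 and 13.8 with tamoxifen. The values did not overlap in either line, and the neutral line also separated, with 16.7, 8.61 and 15.8 for vehicle above 0, 5.85 and 2.03 for tamoxifen.

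MT1X fell with tamoxifen in the repressive line (log2 fold change -3.94, SE 1.36, DESeq2 adjusted p = 0.0343), where the 3 tamoxifen libraries held 1 count in all against 19. The ratio of vehicle to tamoxifen was 16.6, with an exact 95% counting interval of 2.64 to 690.3. Of the 18 fits that each left out a library, 7 kept the call, 10 gave no adjusted p (those without each of the 3 repressive tamoxifen libraries among them), and the fit without repressive vehicle replicate 2 gave an adjusted p of 0.0794. Limma-voom gave 0.307, and among rows without opposite-strand overlap there was no adjusted p. Its neutral-line log2 fold change was -2.38 (SE 0.82, unadjusted p = 0.0036), which did not pass with independent filtering off (adjusted p = 0.238). The activating effect exceeded the repressive one by 5.27 (SE 1.53, unadjusted p = 0.000573), without an adjusted p in the DESeq2 fit but with 0.0203 with filtering off and 0.0288 in edgeR, settings that called 3.61% and 3.15% of all rows. Against the neutral line the activating effect was higher by 3.70 (SE 1.07, unadjusted p = 0.000563, adjusted p = 0.0909 with filtering off). The repressive and neutral effects of MT1X were both negative (-3.94 and -2.38), and their difference was not called by DESeq2. Only 4 of the 17 members received a DESeq2 adjusted p in that comparison. In edgeR, which gives every row one, no member was called there, where 2.65% of all rows were.

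MT1E, the third metallothionein of the list, had 3.80, 7.19 and 4.59 normalized counts with vehicle and 0.971, 0 and 0 with tamoxifen in the repressive line. These did not overlap, and rested on 17 counts against 1, a ratio of 14.9 with an exact 95% counting interval of 2.33 to 621.2. Its log2 fold change of -3.78 (SE 1.35, unadjusted p = 0.00507) received no adjusted p in the DESeq2 fit. With filtering off the adjusted p was 0.0531, and edgeR, which called 8.99% of all rows in this comparison, gave 0.0389. MT1E in the activating line had 14.7, 10.6 and 18.1 with vehicle and 11.1, 15.8 and 11.1 with tamoxifen, which overlapped, and its difference between these lines of 3.59 (SE 1.49, unadjusted p = 0.0162) did not pass. The neutral line had 2.08, 12.4 and 14.8 with vehicle and 1.93, 5.85 and 5.09 with tamoxifen. These overlapped, with a mean of 9.76 against 4.29. The repressive minus neutral difference of MT1E was not called by DESeq2 or by edgeR.

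Metallothionein genes are similar in sequence and reads can be split among them, so the 3 were also summed. Other metallothionein genes were not included, and MT2A had the highest mean of the 3 in every group. The sum was 32.2 ± 10.0 (SD, n = 3) normalized counts with vehicle and 4.80 ± 2.58 with tamoxifen in the repressive line. It was, in the activating line, 46.0 ± 8.75 and 79.4 ± 9.80, and in the neutral line 40.2 ± 13.2 and 26.4 ± 8.55. Tamoxifen libraries lay below all vehicle libraries in the repressive line, above them in the activating line, and overlapped them in the neutral line. MT1X also shares 321 exonic bases with RP11-343H19.2 on its own strand. Per kb of exon MT2A had 24.6 normalized counts on average over all libraries, MT1E 7.40 and MT1X 4.56.

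**Figure D4:**
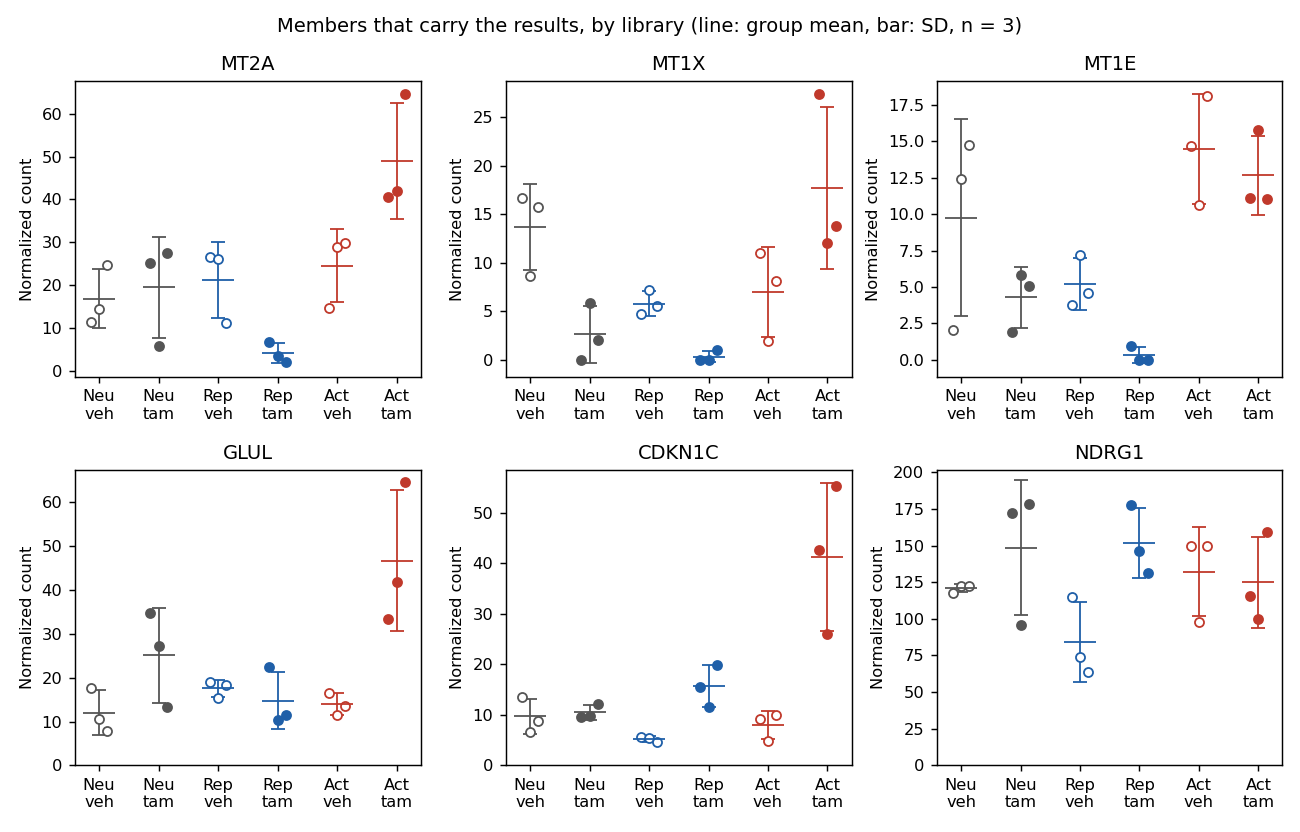
Normalized counts of 6 members in each of the 18 libraries by line and treatment (Neu, neutral; Rep, repressive; Act, activating; open, vehicle; filled, tamoxifen), with group mean and SD. MT2A drops to 2.10 to 6.79 in the repressive tamoxifen libraries and reaches 40.5 to 64.5 in the activating ones, whereas CDKN1C is higher with tamoxifen in both of these lines.

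Among signalling and growth genes, CDKN1C, an inhibitor of cyclin-dependent kinases also called p57, was higher with tamoxifen in both lines that carry an effector. Its normalized count was 5.70, 5.39 and 4.59 with vehicle and 15.5, 11.6 and 19.9 with tamoxifen in the repressive line. Activating-line values were 9.20, 4.83 and 9.96 with vehicle and 42.6, 26.1 and 55.3 with tamoxifen. Neutral-line values were 13.5, 6.70 and 8.87 with vehicle and 9.63, 9.74 and 12.2 with tamoxifen. The groups separated in the repressive and the activating line, in the same direction, and overlapped in the neutral line.

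CDKN1C rose in the repressive line (log2 fold change 1.59, SE 0.56, DESeq2 adjusted p = 0.0399). That call was lost with total-count scaling (adjusted p = 0.0701), with limma-voom (0.16), and without activating tamoxifen replicate 1, repressive tamoxifen replicate 1 or 3, or any of the 3 repressive vehicle libraries, with adjusted p up to 0.153. For the activating line the log2 fold change was 2.36 (SE 0.49, unadjusted p = 1.6e-06), and the adjusted p was 0.000258 with filtering off, 0.00134 in edgeR and 0.00316 in limma-voom. The effects of the 2 lines differed by 0.77 (95% interval -0.69 to 2.24, DESeq2 adjusted p = 0.686). The activating effect exceeded the neutral one by 2.24 (SE 0.72, unadjusted p = 0.002, adjusted p = 0.195 with filtering off), which did not pass. The repressive effect exceeded the neutral one by 1.47 (95% interval -0.049 to 2.98, unadjusted p = 0.0578, adjusted p = 0.381 with filtering off), which did not pass either.

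NDRG1, a stress- and differentiation-responsive gene of epithelial cells, rose in the repressive line, from 114.9, 73.7 and 63.4 normalized counts to 177.6, 146.2 and 131.0. The tamoxifen values all lay above the vehicle values. NDRG1 changed by 0.86 on the log2 scale (SE 0.24, DESeq2 adjusted p = 0.00583), and the call was lost without repressive tamoxifen replicate 1 or repressive vehicle replicate 2 or 3 (adjusted p up to 0.0748). In the neutral line the values were 117.6, 122.4 and 122.2 with vehicle and 172.5, 95.5 and 178.1 with tamoxifen, and in the activating line 149.95, 97.5 and 149.4 with vehicle and 115.5, 99.6 and 159.4 with tamoxifen. Both overlapped, with log2 fold changes of 0.30 (95% interval -0.17 to 0.77) and -0.084 (95% interval -0.55 to 0.38). The repressive effect was higher than the activating one by 0.94 in size (difference -0.94, activating minus repressive, SE 0.34, DESeq2 adjusted p = 0.0731) and did not pass, although it did among rows without opposite-strand overlap (adjusted p = 0.0283) and in 4 of the 18 fits that left out a library. The repressive and neutral effects differed by 0.56 (95% interval -0.11 to 1.22, DESeq2 adjusted p = 0.383). The vehicle level of the repressive line was the lowest of the 3 lines, at 84.0 ± 27.3 against 120.7 ± 2.71 in the neutral line and 132.3 ± 30.1 in the activating line.

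GADD45A, a DNA-damage-inducible growth-arrest gene, was lower in the repressive line without passing the test. It had 16.1, 15.3 and 17.5 normalized counts with vehicle and 4.85, 4.64 and 7.34 with tamoxifen. The groups did not overlap, and the log2 fold change was -1.54 (SE 0.57, unadjusted p = 0.00755, DESeq2 adjusted p = 0.0585). Total-count scaling gave an adjusted p of 0.034. In the other lines the log2 fold changes were -0.05 (neutral) and -0.28 (activating). NFKBIA, the inhibitor of NF-kappaB, had log2 fold changes of 0.14, 0.0056 and -0.54 in the neutral, repressive and activating lines, and PMEPA1, a membrane protein that limits TGF-beta signalling, had 1.35, 0.75 and 0.63. None of these was called. Both genes received a DESeq2 adjusted p in the repressive line only (0.996 and 0.569), and none of these changes passed with filtering off. The other 7 members of this role with a row were below the count filter.

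GLUL, glutamine synthetase, a glucocorticoid-inducible enzyme in several tissues, had the highest levels in the activating line with tamoxifen. Its normalized count there was 16.6, 11.6 and 13.6 with vehicle and 33.4, 41.9 and 64.5 with tamoxifen. In the repressive line it was 19.0, 15.3 and 18.4 with vehicle and 22.3, 10.4 and 11.5 with tamoxifen. Those of the neutral line were 17.7, 10.5 and 7.88 with vehicle and 34.7, 27.3 and 13.2 with tamoxifen. The activating line separated, and the other lines overlapped, the neutral one by a single tamoxifen library.

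In the activating line the log2 fold change of GLUL was 1.75 (SE 0.44, unadjusted p = 6.68e-05). The adjusted p was 0.00571 with filtering off, 0.00993 in edgeR and 0.0128 in limma-voom. In the neutral line it was 1.07 (SE 0.46, unadjusted p = 0.0214), which did not pass (adjusted p = 0.5 with filtering off), and in the repressive line -0.23 (95% interval -1.15 to 0.68). The activating effect exceeded the repressive one by 1.98 (SE 0.64, DESeq2 adjusted p = 0.0341), a call lost with filtering off (0.0529), edgeR (0.0553) and limma-voom (0.0811). It was also lost without activating tamoxifen or activating vehicle replicate 2 or 3, repressive tamoxifen replicate 2 or 3, or repressive vehicle replicate 1 or 3 (adjusted p up to 0.137). The activating and neutral effects differed by 0.68 (95% interval -0.57 to 1.93). The repressive minus neutral difference was -1.30 (95% interval -2.59 to -0.013, unadjusted p = 0.0477, DESeq2 adjusted p = 0.248), which did not pass.

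The other metabolic members tested, ANGPTL4, a secreted inhibitor of lipoprotein lipase, and B4GALT1, a galactosyltransferase, were not called in any comparison. ANGPTL4 received no DESeq2 adjusted p in any of them, and B4GALT1 received one only in the repressive line (0.93). Neither passed in edgeR, which gives every row an adjusted p. Their log2 fold changes in the repressive line were -1.85 (SE 1.12) and 0.18 (SE 0.72). In the activating line they were -0.89 (SE 0.99) and 0.49 (SE 0.74). The other 8 members of this role were below the filter, among them SORD, sorbitol dehydrogenase, at 0 to 7 counts, ACSL3, an acyl-CoA synthetase, at 0 to 12 counts, and TAT, tyrosine aminotransferase, at 0 to 2 counts.

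Among transcription regulators 4 of 6 rows were tested and none was called by DESeq2 in any comparison. MAF, a basic leucine zipper factor, had 0, 1.91 and 3.94 normalized counts with vehicle and 11.6, 10.7 and 9.16 with tamoxifen in the neutral line. These did not overlap, and the log2 fold change of 2.41 (SE 1.06, unadjusted p = 0.0229) did not pass. TFCP2L1, a factor of the grainyhead family, had a difference of 2.75 (SE 1.34, unadjusted p = 0.0397) between the activating and the repressive line, and its values spread widely within groups, from 5.58 to 18.4 in the activating tamoxifen libraries and from 0 to 8.12 in the repressive ones. KLF6 and ZBTB10, both zinc finger factors, had log2 fold changes of -0.82 and -0.22 in the repressive line and -0.45 and 0.75 in the activating line. BCL6, a transcriptional repressor, reached at most 4 counts and ELL2, an elongation factor, at most 7.

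HERC3, a ubiquitin ligase and the member with by far the highest count, changed by a small amount. In the activating line its normalized counts were 1931, 1881 and 1801 with vehicle and 1486, 1717 and 1577 with tamoxifen, which did not overlap. HERC3 fell by 0.23 on the log2 scale there (SE 0.08, DESeq2 adjusted p = 0.0445), and the adjusted p was 0.119 with filtering off, 0.156 in edgeR and 0.384 among rows without an opposite-strand exon overlap. The call was lost without activating tamoxifen replicate 1 or 3, any activating vehicle library, neutral tamoxifen replicate 1 or 2, neutral vehicle replicate 2 or repressive tamoxifen replicate 2 (adjusted p up to 0.286). The vehicle level of HERC3 was lower in the activating line than in the neutral line, which had 2321, 2286 and 2325, by 0.30 on the log2 scale (SE 0.08, DESeq2 adjusted p = 0.00677). No other member was called by DESeq2 between vehicle-treated lines, where 0.808% of all rows were called (activating against neutral), 2.51% (repressive against neutral) and 1.72% (activating against repressive). Only 1, 8 and 4 of the 17 members received an adjusted p in these comparisons, in that order. With filtering off all 17 received one and no member was called, where 0.138%, 2.08% and 1.38% of all rows were. Without activating vehicle replicate 3 the adjusted p of HERC3 was 0.416, and it was 0.0761 with filtering off and 0.0986 in edgeR. Differences of the HERC3 effect between lines did not pass, the largest being -0.19 (95% interval -0.42 to 0.026, activating minus repressive). Per kb of exon HERC3 had 282.7 normalized counts on average and NDRG1, the member with the next highest count, 10.6.

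The secreted and membrane proteins of prostate epithelium, on which androgen activity is commonly read in luminal cells, had few or no counts at their rows. None of the 9 rows was tested. KLK3, which encodes prostate-specific antigen, its neighbour KLK2, the transporter SLC45A3 and the zinc-binding glycoprotein AZGP1 were listed at 0 in all 18 libraries, which bounds the gene's own transcript only if its strand was the one counted. TMPRSS2, a membrane serine protease, and STEAP4, a metalloreductase, reached at most 2 counts, ABCC4 at most 3, and STEAP2 and TPD52 at most 6.

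Some opposite-strand rows of these members were tested. MX1, an interferon-induced GTPase whose exons overlap those of TMPRSS2 by 562 bases, had 13.3, 3.59 and 2.76 normalized counts with vehicle and 47.6, 34.8 and 33.5 with tamoxifen in the repressive line. These did not overlap, and MX1 rose (log2 fold change 2.57, SE 0.72, DESeq2 adjusted p = 0.00468). Differences of the MX1 effect from the other lines received no DESeq2 adjusted p and did not pass with filtering off. Repressive minus neutral was 3.60 (SE 1.16, adjusted p = 0.0557 with filtering off, 0.0908 in edgeR). Activating minus repressive was -2.89 (SE 1.20, adjusted p = 0.204 with filtering off). The rows opposite SORD (RP11-109D20.2, 117 to 265 counts) and BCL6 (RP11-211G3.3, 1 to 21 counts) were not called in any comparison. The row opposite BCL6 received a DESeq2 adjusted p only in the repressive line (0.702).

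Members below the filter are given as counts. DUSP1, a phosphatase that switches off MAP kinases, had 1, 5 and 6 counts with vehicle and 8, 16 and 10 with tamoxifen in the activating line, and lay between 0 and 7 in all other libraries. IGFBP3, a secreted binder of insulin-like growth factors, had 0, 0 and 0 counts with vehicle and 5, 2 and 6 with tamoxifen in the repressive line, and 1, 0 and 0 against 4, 5 and 1 in the neutral line, but 7, 0 and 6 against 5, 2 and 0 in the activating line. DNAJB9, a chaperone of the endoplasmic reticulum, had 5, 5 and 9 counts with vehicle and 0, 1 and 0 with tamoxifen in the activating line, without a like split in the others. These 3 rows were picked after their counts were seen and received no adjusted p for the separations named when DESeq2 was run without the filter. Among the rest, SGK1, a glucocorticoid-inducible kinase, reached at most 3 counts. In the repressive line SGK1 had 0, 0 and 0 counts with vehicle and 3, 1 and 3 with tamoxifen, also without an adjusted p when the filter was left out. TNFAIP3, an inhibitor of NF-kappaB, reached at most 2 counts and TIPARP at most 11.

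Other lists of the same pathway were counted for comparison, beside the 9.65% of all rows called in the repressive, 2.8% in the activating and 0.774% in the neutral line. Of 8 classic targets 5 were tested, and in the repressive line 3 of them fell: FKBP5, an immunophilin that binds the receptor chaperone complex (log2 fold change -2.59), TSC22D3, a glucocorticoid-induced leucine zipper protein (-2.84), and CEBPD, a leucine zipper factor (-2.28), with DESeq2 adjusted p of 3.92e-07, 3.02e-06 and 1.21e-15. In the neutral line CEBPD fell by 0.89 on the log2 scale, and in the activating line KLF9, a zinc finger factor, rose by 0.89. Of 31 further androgen-response genes tested, CDC14B and FADS1 rose in the repressive line (0.73 and 1.00), SCD rose (1.07) and KRT8 (-0.33) and H1F0 (-0.72) fell in the activating line, and no row was called in the neutral line by DESeq2.

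NR3C1, the glucocorticoid receptor, had 0 to 13 counts per library, NR3C2, the mineralocorticoid receptor, 0 to 4, and PGR, the progesterone receptor, 0 in every library. ESR1 had 27 to 85 counts, and the constructs carry a part of its sequence, so this row does not measure the endogenous gene alone.

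Some basal markers were called as well, beside the same shares of all rows. In the repressive line their summed level was 2290 to 3127 CPM with tamoxifen against 1783 to 2559 CPM with vehicle, and 3 of 7 (ITGB4, KRT15 and KRT5) rose. In the activating line it was 2484 to 3024 CPM against 2081 to 2502 CPM, with 1 of 7 (KRT14) higher, and in the neutral line 2380 to 2905 CPM against 1797 to 2249 CPM, with 3 of 7 (ITGB4, KRT5 and KRT14) higher. The summed ranges overlapped in the repressive and the activating line. The part of these markers in the members' results was not tested.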

How the data were processed

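The authors made Illumina stranded mRNA libraries and ran nf-core/rnaseq with the GRCh37 genome option and salmon (version 1.9.0 in the submitters' processing notes). The deposited table holds expected counts, salmon's estimated reads per gene, unscaled for depth or length; 1.10% of values were not whole and all were rounded. No column fell outside the sample list. Groups came from the sample labels. Rows that reached 10 counts in 3 or more libraries entered the tests (5816 rows).

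One DESeq2 model (version 1.42.0, R 4.3.3) of 6 group means covered the 18 libraries, scaled by the median of ratios, with the Wald test and with independent filtering set to 0.05. The 9 comparisons are the tamoxifen effect in each line, the differences of these effects, and the vehicle levels between lines. Values are normalized counts, with unshrunken log2 fold changes. The same model was run on simulated counts first. Changes were placed there only in rows of higher mean count, which among the tested members only HERC3 and NDRG1 reach. Recovery of changes at low counts was therefore not tested. Alternatives were edgeR 4.0.16, limma-voom (limma 3.58.1), total-count scaling, no filter, no independent filtering, a replicate block, rows without opposite-strand exon overlap, and leaving out each library.

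Exons came from GENCODE v44lift37, and promoters from RefSeq (table build GRCh38.p14). Promoters of MT1E, CDKN1C and GLUL are not shown. The members, lists and tests were chosen with earlier results of these data known. Named are all members with an adjusted p under 0.05 in any comparison, those with an unadjusted p under 0.05 in a tamoxifen effect or difference, the 5 with the highest mean count, members with no row or below the filter, and steroid receptors, of which 1 is not reported here. P-values measure the spread between libraries whose separate origin is stated only as biological replicates. Replicates of a group differed by more than sampling noise (chi-square over degrees of freedom 2.84 to 3.79).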

Additional observations from a re-analysis of the deposited data

Results flagged for a closer look

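The differences of tamoxifen effects between lines that passed the test are given here. MT2A differed by 3.34 on the log2 scale between the activating and the repressive line, with a fall in the repressive line and, in the activating line, tamoxifen values that all lay above vehicle without passing. MT2A also differed by -2.55 between the repressive and the neutral line. GLUL differed by 1.98 between the activating and the repressive line. All rest on 2 to 70 counts per library, and the cause was not tested.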

How the results depend on the processing

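The number of members called moved in 41 of 225 recounts under the alternatives and stayed within 1.5 times in 184. In the repressive line it was 1 with limma-voom instead of 4. In the activating line it was 2 with edgeR, limma-voom, no filter, filtering off and rows without opposite-strand overlap, instead of 1. For the repressive minus neutral difference it was 0 with edgeR and limma-voom instead of 1, and for activating minus repressive it was 0 with limma-voom and 4 without opposite-strand rows instead of 2. Between vehicle levels of the activating and neutral line it was 0 with edgeR, filtering off and without opposite-strand rows instead of 1. The causes were not tested, save that fewer rows enter the adjustment where rows are left out. Leaving out 1 library gave 1 to 5 members in the repressive line, 0 to 2 in the activating line, 0 to 0 in the neutral line, 0 to 1 for repressive minus neutral, 0 to 0 for activating minus neutral, 1 to 3 for activating minus repressive, and for vehicle levels 0 to 0 (repressive minus neutral), 0 to 1 (activating minus neutral) and 0 to 1 (activating minus repressive). Over 24 values of single members and the alternatives run, 499 results stayed on the same side of the threshold, 52 lost the call, 35 gained one, 14 calls were left without an adjusted p and none reversed direction.

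Libraries with the same replicate number did not deviate together (correlations -0.30 to 0.32, above 0.1 in 12 of 45 pairs), and with a replicate block the counts were 0, 4 and 1 in the neutral, repressive and activating lines, as without it. Total-count scaling moved the median of all rows by -0.13 in the repressive line. Counts of 0 to 20 per library limit most members, and a row at 0 bounds the gene's own transcript only if the strand counted was the gene's, which was not tested.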
